A study of Homo sapiens with 66 samples.

Results

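The vemurafenib response of MED23 knockout cells was read from 12 of the 66 RNA-seq libraries of the series. All 12 were made from A375 cells, an established human melanoma line in which the kinase BRAF carries an activating mutation, and they were chosen by their labels alone: genotype MED23 KO with guide 1 or guide 2, treated for 24 h with DMSO, the solvent, or with 1 µM vemurafenib, 3 libraries in each of the 4 groups. Each guide's drug libraries were set against that guide's own DMSO libraries, and the response of MED23 knockout cells is the mean over both guides. For comparison, 6 libraries of cells with a guide against GFP (control cells) and 12 each of MED12 and MED19 knockout cells had the same 2 treatments. The labels name no further allele or agent in any of these groups, give all of them the same batch, and do not say whether the knockout cells were clones or pools. Nor do they state that the replicates of a group were grown separately, so p-values reflect only how far libraries of a group spread, which may be technical.

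Vemurafenib blocks mutant BRAF and thereby the MEK and ERK kinases that drive proliferation in such melanoma cells. ERK output includes its own brakes, the Sprouty proteins and dual-specificity phosphatases, and transcription factors of the ETS, FOS and EGR families. Cells that withstand the drug are known to shift between a melanocytic state with pigment genes, a neural crest-like state with the receptor NGFR, and a dedifferentiated state with EGFR and AXL. Mediator is the large complex that passes signals from DNA-bound factors to RNA polymerase II. MED23 belongs to its tail module and is known as the subunit through which ELK1, an ETS factor phosphorylated by ERK, acts at immediate early genes such as EGR1.

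The 6 DMSO libraries of MED23 knockout cells held between 90.32 and 176.25 M counts and the 6 drug libraries between 69.47 and 79.83 M, so every drug library was shallower than every DMSO library. Levels are given as CPM, counts relative to the library's total after scaling for composition. Mitochondrial genes took 1.234% to 1.725% of counts in DMSO and 2.012% to 2.533% under the drug. The guides' target was read first. MED23 (ENSG00000112282, chromosome 6, 131573966 to 131628229, minus strand, GRCh38) was at 37.4, 36.7 and 37.0 CPM in control DMSO libraries and at 46.4, 46.4 and 47.8 CPM under the drug. In MED23 knockout cells it ranged from 16.1 to 18.6 CPM in DMSO (median 16.8) and from 19.5 to 21.9 CPM under the drug (median 20.1). No MED23 knockout library reached any control library, and the drug moved MED23 by 0.25 ± 0.03 (log2 fold change ± SE), against 0.34 ± 0.038 in control cells. Messenger RNA that a frameshift leaves in place is counted too, so how much protein was lost is not known from these levels. Of the lineage markers, MITF and SOX10 were well detected (medians of 78.8 and 288 CPM in DMSO), whereas MLANA, a melanosome antigen, was near 1 CPM in every MED23 knockout library. In a bulk sample, fewer cells of a kind and less RNA per cell cannot be told apart, and this holds for every value below.

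The words rose and fell are used where edgeR's quasi-likelihood test, adjusted over all genes by Benjamini-Hochberg, gave an adjusted p under 0.05 and the change reached 2-fold. Of 27453 genes tested, 4418 rose (16.1%) and 2617 fell (9.53%) in MED23 knockout cells. Counts of called members in the gene lists below are to be read beside these shares. In control cells 5073 rose and 3081 fell. Among genes with a mean log2 CPM of at least 2 falls outnumbered rises. There 827 rose and 1075 fell in MED23 knockout cells, and 1081 rose and 1561 fell in control cells, so most called rises were of genes at low levels. The responses share no library. Of the genes that rose in control cells 62.3% also rose in MED23 knockout cells, which is 71.5% of those that rose there, and the shares of falling genes were 60.7% and 71.5%. Across the 12189 genes with a mean log2 CPM of at least 2, the knockout response followed the control response with a Pearson r of 0.895 and a slope of 0.756. A slope under 1 was not particular to MED23 loss. Set against the same control response, it was 0.75 in MED19 knockout cells (r of 0.922) and 0.414 in MED12 knockout cells (r of 0.731). These are descriptions across genes of libraries that each enter every gene. The difference of the responses, MED23 knockout minus control, passed the same thresholds as a positive value in 762 genes (2.78%) and as a negative value in 982 (3.58%).

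**Figure D1:**
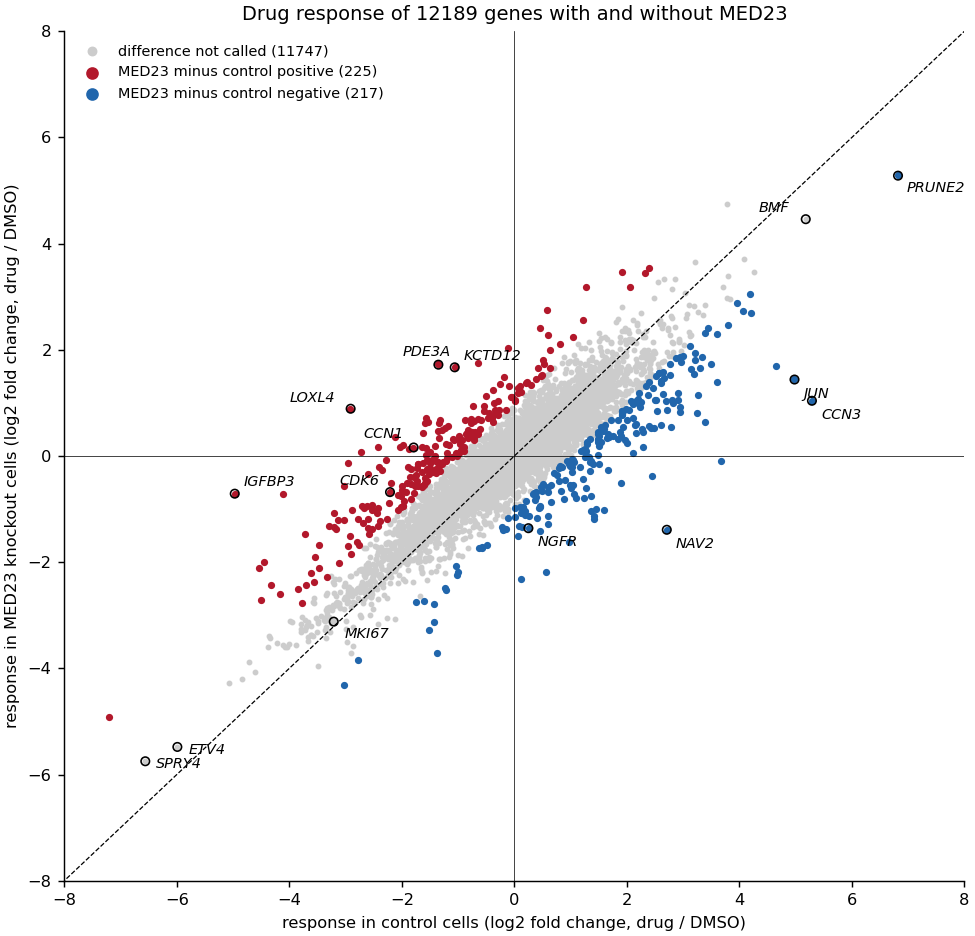
Log2 fold change (drug over DMSO) in control cells on the horizontal axis and in MED23 knockout cells on the vertical axis for 12189 genes with a mean log2 CPM of at least 2. Red points (225) have a called positive and blue points (217) a called negative difference between the responses, the dashed line marks equal responses, and JUN, CCN3 and NAV2 lie far below it while IGFBP3 and LOXL4 lie far above it.

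The differences were sorted by what control cells did. Among genes that rose in both, 245 rose less and 53 rose more in MED23 knockout cells, and among those that fell in both, 112 fell less and 44 fell more. Another 431 genes with a called difference rose in control cells and were not called in MED23 knockout cells, and 280 fell in control cells and were not called, which includes changes under 2-fold. Changes called in MED23 knockout cells alone, again with a called difference, comprised 186 rises and 136 falls. In 21 genes a rise in control cells met a fall in MED23 knockout cells, and in 18 the reverse.

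The ERK feedback inhibitors fell in MED23 knockout cells. Of 9 tested, 0 rose and 8 fell, with a median of -2.59, where the median of all genes was 0.0746 (in control cells 8 fell, with a median of -1.42). The median of the members' own differences was -0.18. SPRY4, a Sprouty inhibitor of receptor signalling (ENSG00000187678, chromosome 5, 142310427 to 142326455, minus strand), ranged from 87.7 to 107 CPM in DMSO (median 101) and from 1.51 to 2.09 CPM under the drug (median 1.88). In control cells it went from 336, 347 and 357 CPM to 3.58, 3.64 and 3.79 CPM. The DMSO and drug libraries lay far apart in each genotype, with a fall of 53.9-fold in MED23 knockout cells (-5.75 ± 0.053, adjusted p = 9.2e-54) and of 94.4-fold in control cells. DUSP6, the cytosolic ERK phosphatase, changed by -3.58 ± 0.033 and SPRY2 by -2.65.

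Individual brakes responded unequally in the 2 genotypes. DUSP4, a nuclear ERK phosphatase, ranged from 374 to 388 CPM in DMSO (median 383) and from 40.5 to 46.5 CPM under the drug (median 45.1) in MED23 knockout cells. The control libraries had 527, 518 and 531 CPM in DMSO and 195, 192 and 200 CPM under the drug. DUSP4 thus fell 8.69-fold without MED23 and 2.68-fold with it (difference -1.70 ± 0.037, adjusted p = 2.0e-36), and DUSP5, a further nuclear phosphatase, had a difference of -1.23 ± 0.066. SPRY1 went the other way, falling 6.03-fold in MED23 knockout and 18.0-fold in control cells (difference 1.58 ± 0.14, adjusted p = 7.3e-14). These 3 were the members of this list with a called difference.

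Among 14 ERK-induced transcription factors 0 rose and 9 fell in MED23 knockout cells (median -1.52), and 1 rose and 7 fell in control cells (median -1.13). ETV4, an ETS factor whose exons overlap a more abundant gene on the other strand by 1.89%, ranged from 174 to 190 CPM in DMSO and from 3.71 to 4.38 CPM under the drug, a 44.7-fold fall (-5.48 ± 0.043, adjusted p = 2.2e-56). Its relative ETV5 changed by -4.19 ± 0.04, and FOSL1, a FOS family factor, by -3.17 ± 0.042. In control cells the values of these 3 were -5.99, -4.84 and -3.80. None of the 3 had a called difference, since each difference stayed under 2-fold.

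EGR1 (ENSG00000120738, chromosome 5, 138465490 to 138469315, plus strand), a zinc finger factor induced by ERK, had 23.1, 27.2 and 25.5 CPM in control DMSO libraries and 7.66, 7.24 and 8.24 CPM in control drug libraries. In MED23 knockout cells it ranged from 1.73 to 2.33 CPM in DMSO (median 1.96) and from 0.952 to 2.70 CPM under the drug (median 1.79). Its level without the drug was thus already below that of drug-treated control cells, the DMSO and drug libraries overlapped, and the response of -0.15 ± 0.10 (adjusted p = 0.18) did not pass, against -1.71 ± 0.098 in control cells (difference 1.56 ± 0.14, adjusted p = 2.9e-13). That response is a mean of unlike guides, -0.69 with guide 1 and 0.39 with guide 2. EGR3 changed by -2.96 ± 0.12 from a DMSO range of 2.90 to 4.09 CPM, and by -1.27 ± 0.10 in control cells, whose DMSO libraries had 22.0, 22.9 and 22.0 CPM. FOS, the partner of JUN in AP-1, rose in control cells from 4.56, 4.63 and 4.83 CPM to 10.7, 10.7 and 10.9 CPM. Without MED23, FOS fell, from 1.55 to 2.12 CPM in DMSO (median 1.80) to 0.488 to 1.21 CPM under the drug (median 0.832), so that its responses had opposite signs (1.21 ± 0.12 and -1.16 ± 0.11, difference -2.37 ± 0.16, adjusted p = 4.4e-17). With guide 2 alone FOS changed by -0.88, which is under 2-fold. IER3, an early response gene, fell less without MED23 (-2.20 against -3.61).

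The promoter of EGR1 is shown because serum response elements, named CArG boxes, lie there, which the factor SRF is known to occupy together with ELK1. The 250 bases before its start (chr5:138465229-138465478, plus strand, RefSeq, GRCh38.p14) hold 2 matches, in capitals, which begin 105 and 83 bases before the start.
EGR1: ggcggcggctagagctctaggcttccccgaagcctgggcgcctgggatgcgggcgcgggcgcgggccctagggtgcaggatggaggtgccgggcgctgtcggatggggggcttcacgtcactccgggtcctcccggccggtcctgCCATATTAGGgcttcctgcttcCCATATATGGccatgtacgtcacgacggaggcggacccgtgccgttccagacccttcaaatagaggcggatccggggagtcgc
Of 14751 tested genes with a promoter entry, 1.07% held a CArG box in this window on either strand. The match is a description of the letters and was not tested for binding.

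Other genes known to depend on ERK fell as well: of 13, 0 rose and 11 fell in MED23 knockout cells (median -1.86, control -2.00). IL11, a cytokine, changed by -2.63 and VGF, a secreted neuropeptide precursor, by -2.27. CXCL8, a neutrophil chemokine, had 1383 and 1570 counts over the 3 DMSO libraries of guides 1 and 2, and 12 and 36 counts under the drug, too few for a plain fold. EPHA4, an ephrin receptor, parted from the list: it changed by 0.65 ± 0.046 in MED23 knockout and by -1.53 ± 0.071 in control cells (difference 2.18 ± 0.085, adjusted p = 1.2e-26). CXCL1, another neutrophil chemokine, was likewise uncalled without MED23 at -0.76 ± 0.099, against -2.58 ± 0.13 with it.

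Smaller rises were seen among AP-1 factors. Of 9 AP-1 genes tested, 3 rose (JUN, ATF3 and FOSL2) and 2 fell (MAFF and BATF3) in MED23 knockout cells, the same counts as in control cells, but all 3 rises were called smaller. JUN (ENSG00000177606, chromosome 1, 58780788 to 58784327, minus strand), the leading AP-1 subunit, had 12.0, 12.5 and 11.6 CPM in control DMSO libraries and 379, 377 and 382 CPM in control drug libraries. Without MED23, JUN ranged from 24.3 to 26.3 CPM in DMSO (median 25.5) and from 63.3 to 74.5 CPM under the drug (median 69.4). MED23 knockout cells therefore started higher and ended lower, and the rise was 2.72-fold against 31.5-fold (1.44 ± 0.03 and 4.98 ± 0.047, difference -3.54 ± 0.053, adjusted p = 2.9e-43). ATF3, a stress-induced partner, ranged from 6.45 to 8.30 CPM in DMSO and from 18.4 to 21.2 CPM under the drug, against 2.64, 2.70 and 2.59 CPM and then 32.8, 33.0 and 30.8 CPM in control cells (difference -2.20 ± 0.088, adjusted p = 4.4e-26). FOSL2 rose 2.27-fold against 7.54-fold (difference -1.73 ± 0.042).

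JUN and ATF3 are shown together because the same 8 letters, a CRE-like element of the form TGACNTCA that ATF and JUN proteins are known to bind, stand in both promoters. RefSeq's starts are used here, and that of JUN lies inside the gene span given above, which comes from another annotation. The element, in capitals, begins 67 bases before the start of JUN (chr1:58784048-58784297, minus strand) and 123 bases before that of ATF3 (chr1:212565157-212565406, plus strand), both from RefSeq on GRCh38.p14.
JUN: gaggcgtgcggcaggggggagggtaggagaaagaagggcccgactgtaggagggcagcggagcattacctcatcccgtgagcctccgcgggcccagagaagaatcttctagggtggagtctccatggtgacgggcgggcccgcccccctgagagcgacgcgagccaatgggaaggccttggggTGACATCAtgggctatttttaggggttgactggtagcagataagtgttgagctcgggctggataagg
ATF3: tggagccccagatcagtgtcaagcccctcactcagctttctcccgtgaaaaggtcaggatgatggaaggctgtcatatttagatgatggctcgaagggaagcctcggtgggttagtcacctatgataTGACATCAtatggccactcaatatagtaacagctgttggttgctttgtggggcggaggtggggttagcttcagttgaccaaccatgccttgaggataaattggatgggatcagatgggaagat
Either strand counted, 4 of 7 AP-1 genes with an entry held such an element in the 250 bases before the start (57.1%), against 6.00% of all 14751 promoters. The list was put together by hand and the share is a description.

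**Figure D2:**
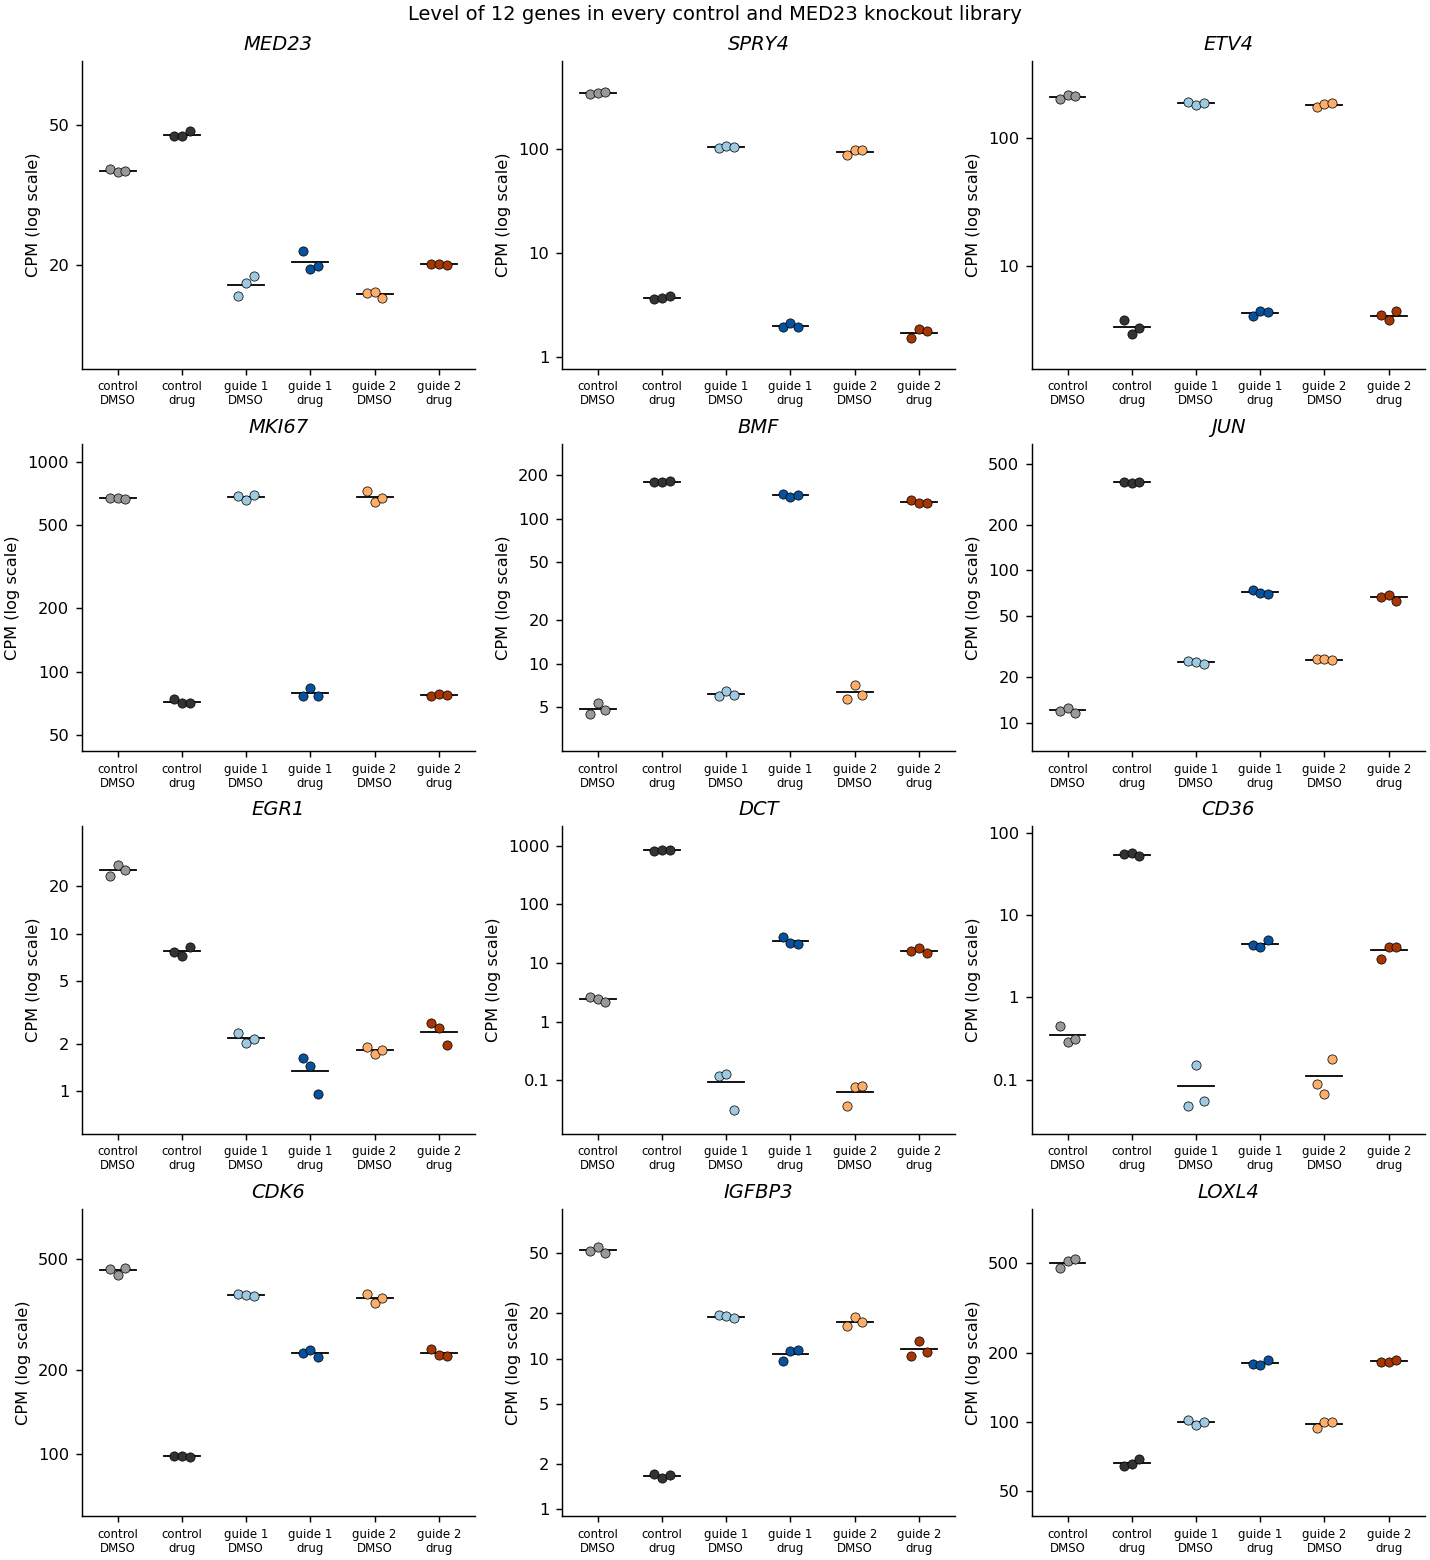
CPM on a log axis in each of the 18 control and MED23 knockout libraries for 12 genes, with 1 point per library and a bar at the mean of 3. SPRY4, ETV4 and MKI67 drop and BMF rises in all 3 cell populations, JUN reaches 377 to 382 CPM in control cells but at most 74.5 CPM in MED23 knockout cells, and EGR1 is at most 2.70 CPM in any MED23 knockout library.

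Proliferation genes fell together, most of them somewhat less than in control cells. All 22 DNA replication genes and all 22 mitosis genes fell in MED23 knockout cells, with medians of -2.01 and -2.60 (control -2.46 and -3.06), and 0 of these 44 had a called difference from control. Without the 2-fold minimum, 19 replication genes had a positive and 3 a negative difference at an adjusted p under 0.05 (median of all 22, 0.56). Of the mitosis genes, 17 had a positive and 0 a negative one (median of all 22, 0.35). MCM10, a replication initiation factor, ranged from 56.1 to 61.5 CPM in DMSO and from 2.28 to 3.75 CPM under the drug (-4.28 ± 0.052, adjusted p = 4.5e-49). RRM2, a ribonucleotide reductase subunit, changed by -3.89 ± 0.038, CDC45, part of the replicative helicase, by -3.60 ± 0.063, and POLE2, a subunit of DNA polymerase epsilon, by -2.67 ± 0.085. MKI67, the proliferation marker, had DMSO values of 643 to 722 CPM (median 677) and drug values of 76.4 to 83.5 CPM (median 77.0). Control cells had 669, 673 and 666 CPM and then 74.4, 70.7 and 71.4 CPM. The 2 genotypes therefore had similar levels in both treatments (-3.12 ± 0.033 and -3.21 ± 0.046, difference 0.10 ± 0.053, adjusted p = 0.16).

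The promoters of POLE2 (chr14:49688215-49688464, minus strand) and MKI67 (chr10:128126424-128126673, minus strand), again from RefSeq on GRCh38.p14, are shown for letters known from cell cycle promoters. E2F elements, searched as TTTNNCGC, serve genes of the G1/S transition, and the cell cycle homology region, searched as TTTGAA, serves mitotic genes. Capitals mark the E2F match, 81 bases before the start of POLE2, and the 2 homology region matches, 47 and 29 bases before that of MKI67.
POLE2: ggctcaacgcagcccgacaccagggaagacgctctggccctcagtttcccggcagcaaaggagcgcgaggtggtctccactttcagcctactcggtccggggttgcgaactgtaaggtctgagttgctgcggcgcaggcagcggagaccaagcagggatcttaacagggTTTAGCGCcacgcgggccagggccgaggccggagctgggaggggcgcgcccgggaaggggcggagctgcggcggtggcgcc
MKI67: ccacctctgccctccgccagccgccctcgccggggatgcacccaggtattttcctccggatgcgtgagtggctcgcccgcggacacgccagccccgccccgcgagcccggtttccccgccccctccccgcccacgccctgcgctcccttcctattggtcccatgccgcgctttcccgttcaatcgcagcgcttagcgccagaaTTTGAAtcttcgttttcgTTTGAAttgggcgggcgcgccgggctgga
The E2F letters were in 9 of 19 replication promoters (47.4%) and in 0 of 17 mitosis promoters, against 7.95% of all promoters searched on both strands. The homology region letters were in 1 of 19 (5.26%) and 8 of 17 (47.1%), against 9.50% of all.

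The cyclins and kinases of G1 fell less evenly. Of 20 tested, 0 rose and 11 fell in MED23 knockout cells (median -1.17, control -1.15). The transcription factors E2F1 and E2F2, which drive S phase genes, changed by -3.52 ± 0.059 and -3.40. CDK6, the G1 kinase, had 461, 438 and 465 CPM in control DMSO libraries and 98.9, 98.6 and 97.6 CPM under the drug. Without MED23 it was at a median of 370.0 CPM in DMSO, with a lowest library of 348 CPM, and ranged from 223 to 238 CPM under the drug, so that its change was under 2-fold (-0.68 ± 0.024 against -2.21 ± 0.035, difference 1.53 ± 0.042, adjusted p = 7.1e-33). CCND1, cyclin D1, ranged from 403 to 414 CPM in DMSO and from 56.8 to 65.5 CPM under the drug, a 6.79-fold fall against 13.6-fold in control cells (difference 1.00 ± 0.036). That difference lay at the 2-fold threshold, and it was 0.95 with guide 1 alone and 0.99 on counts thinned to equal depth. The inhibitor CDKN1B changed by 0.45 ± 0.022 and CDKN1A by 0.27, both under 2-fold.

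Ribosome biogenesis factors fell with the cell cycle genes, 15 of 20 in MED23 knockout cells (median -1.24) and 17 of 20 in control cells (median -1.47), with 0 called differences. At an adjusted p under 0.05 alone, 16 differences were positive and 2 negative. DKC1, the pseudouridine synthase of small nucleolar particles, changed by -1.74 ± 0.022 and RRS1, a ribosome assembly factor, by -1.77.

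Among the BCL2 family, which decides on cell death at the mitochondrion, 4 of 16 rose and 2 fell, as in control cells. Of all genes tested 16.1% rose and 9.53% fell in MED23 knockout cells. BMF, a killer protein of the BH3-only kind, ranged from 5.76 to 7.14 CPM in DMSO (median 6.11) and from 128 to 148 CPM under the drug (median 137), a 22.0-fold rise (4.46 ± 0.04, adjusted p = 5.0e-54). In control cells it went from 4.52, 5.38 and 4.84 CPM to 179, 179 and 182 CPM. The difference of -0.72 ± 0.068 was under 2-fold. HRK, of the same kind, rose by 1.40 ± 0.14, the survival gene BCL2 changed by -2.99 ± 0.072, and BCL2L11, which encodes BIM and overlaps another gene on the opposite strand, by 0.56 ± 0.039, under 2-fold. PMAIP1, another killer protein, fell in both genotypes, by less in MED23 knockout cells (-2.37 ± 0.043 against -3.56 ± 0.073, difference 1.19 ± 0.09). With guide 1 alone that difference was 0.99, under 2-fold.

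BCL2A1, a survival gene known as a target of MITF, had the only called negative difference of the family. It had 0.586, 0.567 and 0.396 CPM in control DMSO libraries and 5.09, 5.29 and 3.82 CPM under the drug, against ranges of 0.181 to 0.376 CPM and 0.330 to 0.854 CPM in MED23 knockout cells. The DMSO and drug libraries of MED23 knockout cells overlapped (1.08 ± 0.20, difference -2.13 ± 0.28, adjusted p = 1.6e-08), and the rise was under 2-fold with guide 2 alone (0.63). Its promoter (chr15:79971197-79971446, minus strand, RefSeq, GRCh38.p14) is shown for the letters CATGTG, the core of the M-box that MITF binds, 25 bases before the start.
BCL2A1: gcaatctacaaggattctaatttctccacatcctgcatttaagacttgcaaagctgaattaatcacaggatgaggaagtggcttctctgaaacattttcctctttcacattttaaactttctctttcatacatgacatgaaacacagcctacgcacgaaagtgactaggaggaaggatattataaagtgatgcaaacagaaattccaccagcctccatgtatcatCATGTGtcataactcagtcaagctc
Of 13 melanocytic genes with an entry 8 held these letters on either strand (61.5%), against 6.81% of all promoters, while 0 of 19 replication promoters did. The letters CACGTG, searched as an E-box, were in 0 of the 13 melanocytic promoters, against 8.16% of all. The lists were put together by hand and the shares are descriptions. Median GC content was 52.8% in the melanocytic, 65.2% in the replication and 63.6% in all promoters, and the part of base composition was not tested.

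Pigment cell genes rose in part. Of 16 melanocytic genes tested, 6 rose and 1 fell (median 0.85), against 8 and 1 in control cells (median 1.02). Without the 6 members that had under 30 counts in some group the medians were 0.43 and 0.83. DCT, an enzyme of melanin synthesis (ENSG00000080166, chromosome 13, 94436808 to 94479682, minus strand), had 1035 counts over the 3 control DMSO libraries but 26 and 25 over those of MED23 guides 1 and 2. Under the drug the counts were 295332 in control cells, 5266 with guide 1 and 3923 with guide 2. In CPM the drug libraries of MED23 knockout cells ranged from 15.0 to 27.4, while the control libraries had 820, 863 and 860. The gene was thus strongly induced in both genotypes, and the difference of the responses did not pass (-0.37 ± 0.48, adjusted p = 0.62). MITF, the master regulator of the lineage, ranged from 76.1 to 85.6 CPM and then from 116 to 125 CPM, against 72.9, 72.8 and 75.8 CPM and then 156, 151 and 153 CPM in control cells. Its change stayed under 2-fold without MED23 (0.61 ± 0.025) and passed with it (1.05 ± 0.035), with a difference of -0.44 ± 0.043 that was also under 2-fold. TYRP1, a second melanin enzyme, rose by 2.33 ± 0.20 and MLANA did not pass (0.12 ± 0.11, adjusted p = 0.31).

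Neural crest and SOX10-associated genes were split: of 17 tested, 4 rose and 3 fell in MED23 knockout cells (median 0.30), and 7 rose and 1 fell in control cells (median 0.81). The factor FOXD3 rose by 2.14 ± 0.047. Of the 17, 0 had a called positive and 2 a called negative difference, NGFR among them. NGFR, the neurotrophin receptor that marks the neural crest-like state (ENSG00000064300, chromosome 17, 49495293 to 49515017, plus strand), had 105, 112 and 105 CPM in control DMSO libraries and 130, 126 and 128 CPM under the drug. In MED23 knockout cells it ranged from 50.1 to 59.7 CPM in DMSO (median 54.4) and from 19.6 to 23.8 CPM under the drug (median 21.4). NGFR therefore fell 2.56-fold without MED23 and was held slightly above its DMSO level with it (-1.36 ± 0.038 against 0.25 ± 0.048, difference -1.61 ± 0.061, adjusted p = 5.1e-27). SOX10 itself changed little under the drug, by 0.30 ± 0.04 in MED23 knockout and 0.45 ± 0.056 in control cells, and ERBB3, the neuregulin receptor, by 0.72 ± 0.041 and 1.12 ± 0.057. Both were lower in MED23 knockout cells already in DMSO. SOX10 had 343621 counts over the 3 control libraries, against 99157 and 111687 with guides 1 and 2, and ERBB3 256155 against 63966 and 67235, at unlike depths. The list's summed level was 2520 to 2630 CPM in control DMSO and 929 to 1090 CPM in MED23 knockout DMSO libraries. Under the drug it was 4720 to 4820 and 1260 to 1640 CPM.

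Of 17 dedifferentiated and invasive genes 1 rose, JUN, and 5 fell in MED23 knockout cells (median -0.28, control -0.64). NT5E, the ectonucleotidase CD73, changed by -3.95 ± 0.048. EGFR, the epidermal growth factor receptor, ranged from 76.7 to 94.3 CPM in DMSO and from 23.4 to 27.4 CPM under the drug. Control cells had 15.1, 15.2 and 15.7 CPM and then 4.36, 4.38 and 4.73 CPM. The changes were close in size (-1.75 ± 0.033 and -1.77 ± 0.057, difference 0.02 ± 0.066, adjusted p = 0.86), and EGFR was higher in every drug library of MED23 knockout cells than in any DMSO library of control cells. INHBA, which encodes an activin subunit, changed by -0.93 ± 0.033 against -2.54 ± 0.051 (difference 1.61 ± 0.06), and AXL by -0.28 ± 0.019 against -0.64 ± 0.027.

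Receptor tyrosine kinases moved in both directions, 9 of 22 higher and 4 lower (median 0.45, control -0.44), with 1 called positive and 2 called negative differences. The negative ones, of ROR1 and KIT, each lost the call under some alternatives. The difference of ROR1 was -0.98 with guide 2 alone. That of KIT did not pass on counts thinned to equal depth (adjusted p = 0.17 in edgeR's fit). The median of the members' own differences was 0.14 and changed sign under some alternative (-0.10 to 0.28). Without the 4 members of low counts 7 rose and 3 fell (median 0.31). NTRK2, a neurotrophin receptor, rose by 2.81 ± 0.098, while ROR1 changed by -2.76 ± 0.057 and MET, the receptor of hepatocyte growth factor, by -1.25 ± 0.018. ROR2, a Wnt5a receptor, rose from 0.169 to 0.395 CPM (lowest and highest of 6) to 1.13 to 1.91 CPM. In control cells it stayed low, at 0.391, 0.393 and 0.429 CPM and then 0.315, 0.318 and 0.322 CPM (difference 2.68 ± 0.47, adjusted p = 5.2e-06). KIT, the stem cell factor receptor, ranged from 0.227 to 0.655 CPM in DMSO and from 1.15 to 2.13 CPM under the drug in MED23 knockout cells, while the 3 control libraries together held 1 and 34 counts.

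Of 18 growth factor ligands 5 rose and 3 fell in MED23 knockout cells, with a median of -0.14, or 0.10 without the 2 members of low counts, EREG and AREG, so the direction of the median depends on them. TGFA, a ligand of EGFR, changed by -2.32 ± 0.024. HGF, the ligand of MET, ranged from 0.0289 to 0.244 CPM in DMSO and from 0.218 to 0.506 CPM under the drug, with overlap. Control cells had 0.430, 0.442 and 0.574 CPM and then 0.111, 0.154 and 0.204 CPM. The signs were opposite (1.59 ± 0.36 and -1.62 ± 0.47, difference 3.21 ± 0.59, adjusted p = 1.4e-05) at levels under 1 CPM.

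YAP/TEAD targets changed little in MED23 knockout cells, where 1 of 22 rose and 2 fell (median -0.29). In control cells 8 fell (median -0.49), and 5 members had a called positive difference, against 1 negative. IGFBP3, which binds insulin-like growth factors (ENSG00000146674, chromosome 7, 45912245 to 45921874, minus strand), was one of the 5. It had 52.0, 55.1 and 50.0 CPM in control DMSO libraries and 1.72, 1.61 and 1.68 CPM under the drug, whereas MED23 knockout cells ranged from 16.5 to 19.3 CPM and from 9.58 to 13.0 CPM. A 31.3-fold fall thus shrank to 1.64-fold (difference 4.25 ± 0.10, adjusted p = 2.7e-35). The matricellular protein CCN1 changed by 0.16 ± 0.038 against -1.79 ± 0.059, ANKRD1, a muscle ankyrin repeat protein, by -0.57 ± 0.064 against -3.03 ± 0.11, FJX1 by -0.98 against -2.67 and AJUBA by 0.30 against -0.92. GADD45B was the negative one (-0.18 against 0.82), with a difference at the 2-fold threshold that was -0.90 with guide 1 alone.

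Matrix and TGF-beta genes were split, 3 of 19 higher and 4 lower (median 0.26, or 0.01 without 2 members of low counts). In control cells 7 were higher and 3 lower (median 0.39). Of all genes tested 16.1% rose in MED23 knockout cells, so the share of this list that rose was near that of all genes, and 9.53% fell. COL3A1, a fibrillar collagen, ranged from 0.361 to 0.560 CPM in DMSO and from 9.01 to 10.1 CPM under the drug (4.40 ± 0.11), and COL6A3 changed by -1.98 ± 0.081. Of 11 fibroblast and endothelial markers 7 rose and 3 fell in MED23 knockout cells. Their summed level went from 31.5 to 35.8 CPM in DMSO to 94.7 to 103 CPM under the drug (21.3 to 22.9 and then 50.8 to 54.2 CPM in control cells). COL3A1 belongs to both lists, and CLDN5, an endothelial claudin, had 59 and 63 counts in DMSO and 0 and 0 under the drug. Of 11 epithelial markers 7 rose and 1 fell, or 4 and 1 without the 3 members of low counts. Their sums went from 318 to 343 CPM to 194 to 221 CPM, of which KRT18, a keratin, made up 275 to 298 CPM and then 141 to 167 CPM. Of 7 blood cell markers tested 2 rose and 3 fell, with sums of at most 10.4 CPM in MED23 knockout cells, and the other members, CD3E, FCGR3A, HBB and MS4A1 among them, were too low to be tested. Of 10 neuronal markers 2 rose and 2 fell. The part of other cells in the results was not tested.

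**Figure D3:**
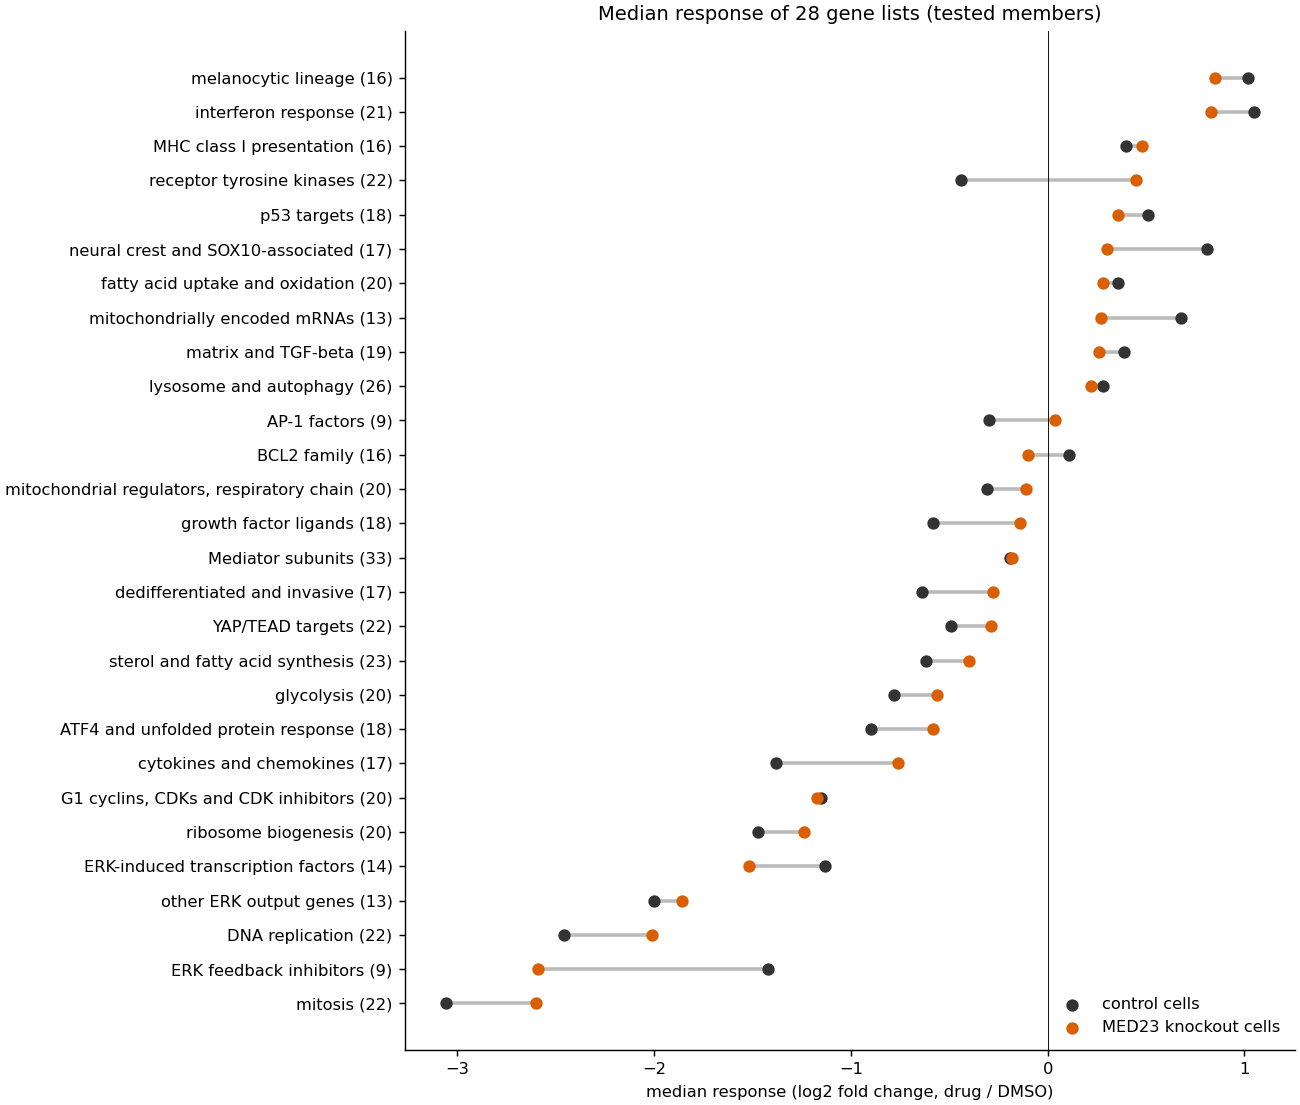
Median log2 fold change (drug over DMSO) of the tested members of 28 gene lists, whose number stands in parentheses, in control cells (dark) and MED23 knockout cells (orange). The knockout median was nearer 0 than the control median in 23 lists and farther from 0 in 5, and the lowest medians belong to mitosis, ERK feedback inhibitors and DNA replication.

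Metabolic lists changed modestly. Of 20 glycolysis genes 0 rose and 3 fell (median -0.56, control -0.78 with 8 lower): the glucose transporter SLC2A3 changed by -1.93 ± 0.031, hexokinase HK2 by -1.60 ± 0.025 and lactate dehydrogenase LDHA by -1.18 ± 0.018. Of 23 sterol and fatty acid synthesis genes 0 rose and 1 fell (median -0.40), against 0 and 7 in control cells (median -0.62). PPARGC1A, the coactivator of mitochondrial biogenesis that MITF is known to induce, ranged from 1.52 to 2.83 CPM in DMSO and from 5.86 to 7.68 CPM under the drug. Its rise of 1.47 ± 0.076 was smaller than the 2.64 ± 0.12 of control cells (difference -1.17 ± 0.15, adjusted p = 4.1e-09). Of the 13 mitochondrially encoded mRNAs 0 rose at least 2-fold (median 0.27, control 0.68 with 2 higher), and MT-CO2 changed by 0.83 ± 0.054. CD36, a fatty acid receptor linked to drug tolerance, had 26 and 47 counts in DMSO and 1001 and 901 under the drug with guides 1 and 2, and 149 and 18782 in control cells. The drug libraries of MED23 knockout cells held 2.91 to 4.94 CPM, against 54.2, 55.9 and 52.0 CPM in control cells (difference -1.90 ± 0.36, adjusted p = 2.2e-05). Lysosome genes changed little, with 1 of 26 higher (CTSA, a carboxypeptidase, 1.02 ± 0.024, but 0.99 with guide 2 alone) and a median of 0.22. Of 18 ATF4 and unfolded protein response genes 3 fell, among them the cystine transporter SLC7A11 (-2.33 ± 0.038).

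Interferon response genes rose in part, 6 of 21 with 0 lower (median 0.83, control 11 of 21, median 1.05). IFIT2, whose exons overlap a more abundant gene on the other strand by 1.58%, rose by 1.13 ± 0.13, while OASL was uncalled at 0.25 ± 0.18, against 1.5 ± 0.36 in control cells. Of 16 genes of MHC class I presentation 1 rose, HLA-F at 1.23 ± 0.098, whose gene overlaps others on the opposite strand. Of 17 cytokines and chemokines 1 rose and 7 fell, and without the 8 members of low counts 0 rose and 4 fell. IL24, a cytokine of the IL-10 family, ranged from 6.24 to 7.48 CPM in DMSO and from 0.407 to 0.747 CPM under the drug, against 37.6, 39.2 and 40.3 CPM and then 14.6, 15.3 and 15.2 CPM (difference -2.32 ± 0.14, adjusted p = 1.3e-19). Of 33 Mediator subunits 0 rose and 0 fell (median -0.18), among them CDK19, a kinase of the kinase module, at 0.88 ± 0.029.

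Outside the lists, PRUNE2 rose from 1.79 to 2.55 CPM in DMSO to 71.9 to 100 CPM under the drug (5.28 ± 0.065), and 6.82 ± 0.092 in control cells. MAP1LC3C, an autophagy protein of the LC3 family, rose by 4.74 ± 0.083, more than in control cells (3.78 ± 0.14) though by a difference under 2-fold. TXNIP, an inhibitor of thioredoxin and of glucose uptake, ranged from 23.6 to 24.5 CPM and then from 271 to 338 CPM (3.66 ± 0.044). MGP, matrix Gla protein, CD24, a surface glycoprotein, and SERPINI1, the inhibitor neuroserpin, rose by 3.55 ± 0.066, 3.46 ± 0.064 and 3.46 ± 0.08, each by more than in control cells (differences 1.16, 1.54 and 1.13). At the lower end CEMIP, a hyaluronan-binding protein whose exons overlap a more abundant gene on the other strand by 2.94%, changed by -4.92 ± 0.077, by less than in control cells (-7.20 ± 0.09). The integrin ITGB3 changed by -4.31 ± 0.049, by more than in control cells (-3.03 ± 0.052, difference -1.27 ± 0.074), as did the urea transporter SLC14A1 (-3.84 ± 0.049 and -2.78 ± 0.08). The latter difference, -1.05, was under 2-fold with guide 2 alone (-0.88).

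Genes whose response differed most from control cells were then ranked in each direction. CCN3, a matricellular protein of the CCN family, had 11.0, 11.5 and 9.78 CPM in control DMSO libraries and 419, 413 and 425 CPM under the drug. MED23 knockout cells ranged from 29.2 to 32.4 CPM in DMSO and from 58.2 to 69.4 CPM under the drug, a rise of 2.06-fold in place of 39.0-fold (difference -4.24 ± 0.054, adjusted p = 1.6e-46). With guide 2 alone the change of CCN3 was 0.91, under 2-fold. As for JUN, the level was higher than in control cells before the drug and lower after it. RAB3B, a GTPase of vesicle release, rose 12.8-fold in control cells and did not pass without MED23 (-0.09 ± 0.042, adjusted p = 0.065). ADAMTS15, a matrix protease, rose by 1.70 ± 0.04 against 4.65 ± 0.057, and SPP1, osteopontin, changed by -0.37 ± 0.038 against 2.44 ± 0.052. SHC4, an adaptor of receptor kinases that overlaps a more abundant gene on the other strand, changed by -2.19 ± 0.051 against 0.56 ± 0.061.

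On the positive side, LOXL4, a lysyl oxidase that cross-links collagen, had 472, 509 and 517 CPM in control DMSO libraries and 64.5, 65.5 and 68.8 CPM under the drug. In MED23 knockout cells it ranged from 94.0 to 102 CPM in DMSO and from 178 to 188 CPM under the drug, so the groups separated in the opposite order (0.89 ± 0.024 against -2.91 ± 0.035, difference 3.80 ± 0.042, adjusted p = 7.2e-49), although the rise stayed under 2-fold. SHISA2 changed by -0.72 ± 0.064 against -4.11 ± 0.10, PDZD2 by -0.12 ± 0.043 against -2.96 ± 0.067, and FGF13, an intracellular FGF homolog, by 0.08 ± 0.048 against -2.73 ± 0.075. HAPLN1, a link protein of hyaluronan, did not pass 2-fold either (0.16 ± 0.039 against -2.42 ± 0.057).

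Some genes were called in opposite directions. NAV2, a neuron navigator protein, had 6.09, 5.57 and 4.71 CPM in control DMSO libraries and 35.7, 34.0 and 36.4 CPM under the drug, and in MED23 knockout cells fell from 6.12 to 8.23 CPM to 2.40 to 3.56 CPM. The DMSO levels of both genotypes lay close together without overlap, and the responses were 2.71 ± 0.085 and -1.39 ± 0.072 (difference -4.10 ± 0.11, adjusted p = 5.3e-33). PDE3A, a phosphodiesterase, showed the reverse: 81.2, 82.3 and 84.2 CPM and then 31.3, 33.5 and 32.2 CPM in control cells, but 13.6 to 17.4 CPM and then 45.4 to 58.9 CPM in MED23 knockout cells (difference 3.08 ± 0.12, adjusted p = 9.5e-27). KCTD12, an auxiliary subunit of GABA-B receptors, changed by 1.67 ± 0.06 against -1.06 ± 0.087. HEY1, a Notch target, PAG1, a membrane adaptor of the kinase CSK, and PKIA, an inhibitor of protein kinase A, rose in control cells by 1.41, 1.41 and 1.59 and changed by -1.13, -1.18 and -1.02 without MED23. With guide 1 alone the change of PKIA was -0.96.

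**Figure D4:**
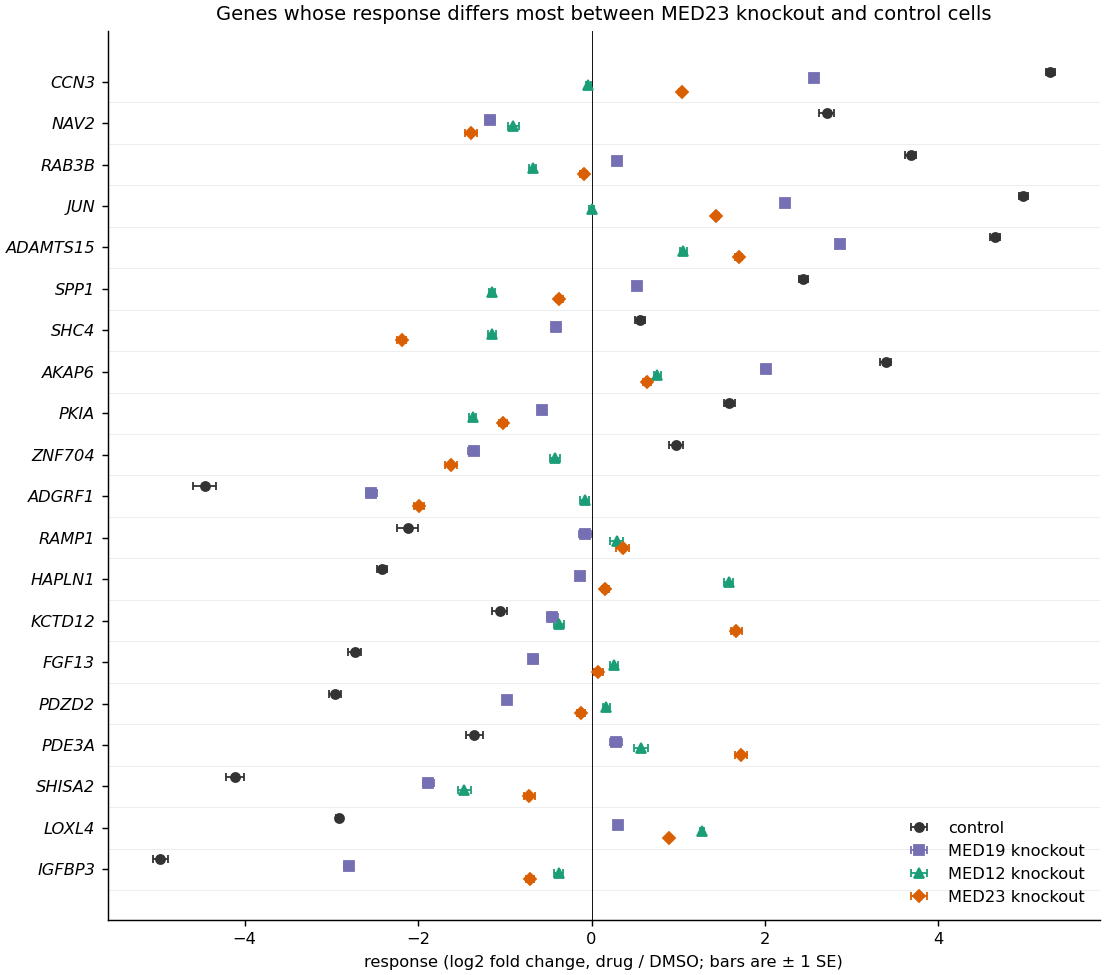
Log2 fold change (drug over DMSO, bars ± 1 SE) in control, MED19, MED12 and MED23 knockout cells for the 10 genes with the most negative (top) and the 10 with the most positive (bottom) difference between MED23 knockout and control cells. JUN and CCN3 rose by 4.98 and 5.29 in control cells, and KCTD12 and PDE3A rose at least 2-fold in MED23 knockout cells and in none of the other 3 genotypes.

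Promoter letters were counted in classes by response. Of 232 promoters of genes that rose in control cells and were not called or fell in MED23 knockout cells, with a called difference, 36 held the M-box core CATGTG (15.5%), against 8.00% of 1750 promoters of genes that rose in both and 6.81% of all. The AP-1 letters TGANTCA were in 9.48%, 6.97% and 5.08% of the same classes, and the ETS letters CCGGAAG in 2.59%, 6.46% and 13.1%. The letters CACGTG, searched as an E-box, went the other way from the M-box core, with 5.6%, 6.0% and 8.16%. The classes differ in base composition, with a median GC content of 57.8%, 62.0% and 63.6%, and the part of that difference was not tested. Another 175 promoters were of genes that fell in control cells and were not called or rose in MED23 knockout cells, with a called difference. Of these, 8.57% held the AP-1 letters, 8.00% the M-box core and 2.29% the ETS letters. In 1061 promoters of genes that fell in both, the shares were 5.84%, 6.88% and 13.6%. The ETS letters were thus less frequent in both classes with a called difference than in the classes called in both genotypes. Median GC content was 66.4% in the 175 and 63.2% in the 1061 promoters. All motifs were searched on both strands of the 250 bases before the start, each motif on its own, so that matches of different motifs may overlap.

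The responses were also compared with those after loss of other Mediator modules, which share no library with MED23 knockout cells. Against MED12, a subunit of the kinase module, 1063 differences were positive and 880 negative (7.08% of genes tested). Mitosis genes fell further in MED23 than in MED12 knockout cells: 20 of 22 had a called negative difference, with a median of -1.33. So did 6 of 22 replication genes, with a median of -0.95. Against control cells neither list fell further without MED23 by its median (-2.60 against -3.06 for mitosis, -2.01 against -2.46 for replication). FAM111B, a replication-coupled protease, changed by -4.07 ± 0.057 in MED23 knockout and by -1.27 in MED12 knockout cells. PRUNE2 rose by 5.28 against 2.33, and NPTX2, a neuronal pentraxin, changed by -3.43 against -0.22. The response of JUN did not pass in MED12 knockout cells (0.00), a difference of 1.44 (adjusted p = 8.8e-32). NTNG1, a netrin, rose without MED23 (2.16 ± 0.067) and fell without MED12 (-1.12). Of 21 interferon response genes 5 had a called positive difference, with a median of 0.80.

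Against MED19, a subunit at the middle module, 205 differences were positive and 250 negative (1.66%), and 0 of the 44 replication and mitosis genes was called. The lists of ERK feedback inhibitors, AP-1 factors, G1 genes, melanocytic genes and neural crest genes also had 0 called differences from MED19. Those differences ran from -0.78 to 0.55 among AP-1 factors, JUN included, and from -0.35 to 0.28 among G1 genes, CDK6 included. The departures of JUN, CDK6, DUSP4 and NGFR from control cells were thus not shown to be particular to MED23 loss. MAP2, a microtubule protein of neurons, rose by 1.37 ± 0.057 in MED23 knockout against 4.16 in MED19 knockout cells, and NAV3 changed by 0.05 ± 0.081 against -2.38. EGR1 changed by -2.44 in MED19 and by -2.54 in MED12 knockout cells, against -0.15 in MED23 knockout cells (differences 2.29 and 2.39, adjusted p = 1.5e-19 and 2.4e-21). With MED23 guide 1 alone EGR1 changed by -0.69 and with guide 2 alone by 0.39. IGFBP3 had a response of -2.80 in MED19 and -0.38 in MED12 knockout cells, between which the -0.71 of MED23 knockout cells differed from the first by 2.09 (adjusted p = 4.3e-27) and from the other by less than 2-fold.

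Both MED23 guides gave closely matching responses. Across the 12189 genes the response with guide 2 followed that with guide 1 with a Pearson r of 0.992 and a slope of 0.95. The difference between the guides passed in 5 genes (0.0182%), against 43 at an adjusted p under 0.05 alone and 10.8% of genes at an unadjusted p under 0.05. EGR1 changed by -0.69 with guide 1 and by 0.39 with guide 2 (difference -1.08, adjusted p = 0.011). This edgeR call was lost with only the groups compared (-1.09, adjusted p = 0.055), and with 1 library left out the difference came down to -0.89, under 2-fold. The mitochondrial transfer RNA MT-TC changed by 0.75 with guide 1 and 2.18 with guide 2 (difference -1.43, adjusted p = 0.0077), and LIPC, a lipase, TRPC6, a calcium channel, and FAM215B, which were below a mean log2 CPM of 2, were the others.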

How the data were processed

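Gene counts of 42 A375 libraries were used as the authors deposited them. Per the submitters' processing notes, reads were handled with bcl2fastq, HISAT2 and HTSeq on hg38, without versions, and per the labels' protocols the libraries came from a stranded mRNA kit. The strand setting of the counting is not given in the sources used here, so genes that overlap on the opposite strand (such as SHC4, ETV4, IFIT2, CEMIP, BCL2L11, FOXD3, HLA-F, CTSA, CCND1, SOX10, PRUNE2, NGFR and MGP) may share reads.

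Genes were filtered with edgeR 4.0.16 (filterByExpr, minimum count 10, total 15) in R 4.3.3, which kept 27453 of 58721, and scaled by TMM. All 42 libraries entered 1 quasi-likelihood fit with a mean for each group, which share 1 estimate of the spread. p-values were adjusted by Benjamini-Hochberg over all genes, and standard errors were taken from the F statistic. Scripts were tested on simulated data. Alternatives included DESeq2 1.42.0, other filters and scalings, each guide alone, each library left out and, added after seeing the data, counts thinned to equal depth.

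The gene lists and the members were chosen with earlier results of these data known. Genes named by rule were 16 set genes, the 10 highest and 10 lowest responses, the 10 most positive and 10 most negative differences from control and 6 calls in opposite directions (each guide alone at an adjusted p under 0.05 with the same sign and no fold minimum, for opposite calls in the difference, mean log2 CPM of at least 2), up to 4 genes each for the comparisons with MED12, MED19 and between guides, and per list up to 4 members with the largest response, members against its direction and 2 with the largest difference. The 10 highest and 10 lowest responses also had to show no overlap between the DMSO and drug libraries of MED23 knockout cells, so their separation was fixed by this choice. DUSP5, FOSL2, IER3, CCN1, FJX1, AJUBA, GADD45B, LIPC, TRPC6 and FAM215B complete counts of 5 or fewer, and these and KRT18 were named after their values were seen. Promoter sequences are RefSeq's (GRCh38.p14), matched by symbol for 14751 tested genes and 142 of 211 named genes. Some results are not reported here.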

Additional observations from a re-analysis of the deposited data

Results flagged for a closer look

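Opposite responses in MED23 knockout and control cells, with the difference itself tested in edgeR's fit across all genes, marked 8 named genes. The difference, MED23 knockout minus control on the log2 scale, was negative for NAV2 (-4.10), PKIA (-2.61), PAG1 (-2.59), HEY1 (-2.53) and FOS (-2.37). It was positive for HGF (3.21), PDE3A (3.08) and KCTD12 (2.73). HGF was under 1 CPM in every library of both genotypes.

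A difference between the guides marked EGR1 (guide 1 minus guide 2, -1.08) and the mitochondrial transfer RNA MT-TC (-1.43). The EGR1 response was -0.69 with guide 1 and 0.39 with guide 2, at levels of at most 2.70 CPM. That call was lost with only the groups compared (adjusted p = 0.055 in edgeR's fit), and with 1 library left out the difference came down to -0.89.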

How the results depend on the processing

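Leaving out each library in turn gave 4359 to 4530 higher and 2626 to 2735 lower genes for the response in MED23 knockout cells, 716 to 795 and 894 to 1020 for the difference from control, 1005 to 1093 and 854 to 935 for that from MED12 and 188 to 234 and 221 to 291 for that from MED19. Without the 2-fold minimum the counts were 10273 and 8806, 5092 and 4453, 5433 and 5902, and 2715 and 2658 in the same order. The other alternatives moved these counts by less than 1.5 times. The replicate numbers did not pair the libraries: deviations of same-numbered libraries correlated between -0.1929 and 0.2325 over 45 pairs, and a fit with a replicate block gave 4406 and 2605, 750 and 973, 1049 and 869, and 201 and 243. The guide comparison, with 1 higher and 4 lower genes, rests on few genes. It gave 23 and 20 without the 2-fold minimum, 9 and 15 without the filter on low counts, 0 and 2 with only the groups compared and 0 and 1 with DESeq2's Wald test. No gene was higher (0) with DESeq2 size factors, with the replicate block or on counts thinned to equal depth, and leaving out each library gave 0 to 4 higher and 2 to 4 lower. The causes were not tested. Of 4310 values of 211 named genes under alternatives other than the fold minimum, 4225 kept their side of the threshold, 50 lost and 35 gained a call and 0 reversed. The medians of the AP-1 and ligand lists and of the blood markers changed sign under some alternative. Every drug library of MED23 knockout cells was shallower than every DMSO one. Thinning gave 3991 higher genes in place of 4418, guide 2 alone gave 3833 and a fit of only the groups compared gave 3628.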
